A study of Equus caballus with 16 samples.

Results

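MiR-1, miR-133a, miR-133b and miR-206, the striated muscle miRNAs, were chosen by name from the equine miRNAs of the deposited table, and all 4 of them were found among the 686 miRNAs listed. Of the 686, 324 had any read. The 282 whose average exceeded 10 CPM in some season were tested, and the 4 muscle miRNAs all passed this filter. They were measured in extracellular vesicles of follicular fluid (FF-EVs) from mares of 8 to 14 years, taken from preovulatory follicles of 30 to 35 mm. The seasons were the spring anovulatory season in March (SAN), the spring ovulatory season in April and May (SOV), the summer ovulatory season in June and July (SUM) and the fall ovulatory season in September (FOV). Each season had 4 libraries of small RNA, each made from pooled fluids of 2 to 3 mares. In every season the mares were sedated for the procedures, and earlier follicles had been ablated under ultrasound guidance so that a fresh wave would grow. The pools hide the spread between single mares, so the p-values below measure the spread between pools only. The mares were sampled again in several seasons, and the tests treat the libraries as independent although shared mares can link them.

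Values are CPM (read counts scaled to a common library size), which the authors adjusted by the trimmed mean of M-values (TMM). Each was a whole number of reads multiplied by 1 factor of its library, so the reads could be recovered. The libraries held between 27131 and 112146 miRNA reads, with a median of 51696, and a single read was worth 7.91 to 35.6 CPM. The study reported far more clean reads per sample. Depth below therefore means these miRNA reads, by which CPM is also scaled, and not all reads sequenced. SUM held the deepest libraries by median (85293 reads), against 50927 in SAN, 47030.5 in SOV and 51714 in FOV. Comparisons were made without the library FOV_1, which the study also omitted, and its values are given separately. The study left it out because it resembled SAN in a principal component analysis, so that choice rested on the measured values.

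MiRNAs guide repressor complexes to messenger RNAs through their seed, the short stretch next to the 5′ end. In striated muscle, miR-1 and miR-133a are cut from shared precursors of skeletal and heart muscle, while miR-206 and miR-133b come from a locus that is active mainly in skeletal muscle. In mouse myoblasts, miR-1 favours differentiation by repressing the histone deacetylase Hdac4, and miR-133 favours proliferation by repressing serum response factor. The follicle wall holds granulosa, theca, vascular and smooth muscle cells but no striated muscle.

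The mature horse sequences are shown because the 4 miRNAs form pairs by seed, and because these pairs set how far reads can be told apart. They are given in T letters from the table of expressed miRNAs of the study (miRBase 22), with bases 2 to 8, the seed, in capitals.
miR-1: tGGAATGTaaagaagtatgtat
miR-206: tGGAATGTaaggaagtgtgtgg
miR-133a: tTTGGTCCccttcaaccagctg
miR-133b: tTTGGTCCccttcaaccagcta
miR-499-5p: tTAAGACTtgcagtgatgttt
Among 282 sequences read from that table, the seed of miR-1 occurred in miR-206 alone, and the seed of miR-133a in miR-133b alone (0.709% of sequences for each seed). MiR-1 and miR-206 matched at 18 of 22 positions, with the substitutions A11G, A17G, A21G and T22G (miR-1 first, counted from 1 at the 5′ end). MiR-133a and miR-133b matched at 21 of 22 positions and differed only by G22A at the 3′ end. A read that lacks this last base cannot be assigned to either of them with certainty, so the split between miR-133a and miR-133b is uncertain. The seed of miR-499-5p, a further striated muscle miRNA, was shared with none.

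MiR-1 was by far the most abundant of the 4. Over the 16 libraries it had 6693 reads, miR-206 had 802, miR-133a had 110 and miR-133b had 10. Together these were 7615 of 985463 reads (0.773%), of which 87.9% were miR-1 and 10.5% miR-206. The mean of miR-1 over the 15 libraries compared ranked 22nd among all miRNAs (9120 CPM), that of miR-206 ranked 60th (1030 CPM), that of miR-133a 125th (138 CPM) and that of miR-133b 234th (12.4 CPM). MiR-1 thus exceeded miR-133a, its precursor partner, in every library, by 9.38 to 334 times in reads.

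Other striated muscle miRNAs were scarce. MiR-499-5p, encoded within a slow myosin heavy chain gene, had 49 reads in 14 of the 16 libraries and reached 127 CPM at most. MiR-208a and miR-208b, from the cardiac myosin heavy chain genes, and miR-499-3p had no read, which allows a level of up to 3.04 CPM (3 reads over all libraries). Intervals and floors cover counting error only, since the libraries carry no molecular identifiers. Markers of the follicle were present at low levels, with a summed 71.2 to 1839 CPM over the 8 listed of 9 granulosa and follicle markers, of which miR-508-3p had no read. MiR-202 was not analysed here. In these vesicles, fewer vesicles from a cell type and fewer miRNA molecules per vesicle cannot be told apart.

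**Figure D1:**
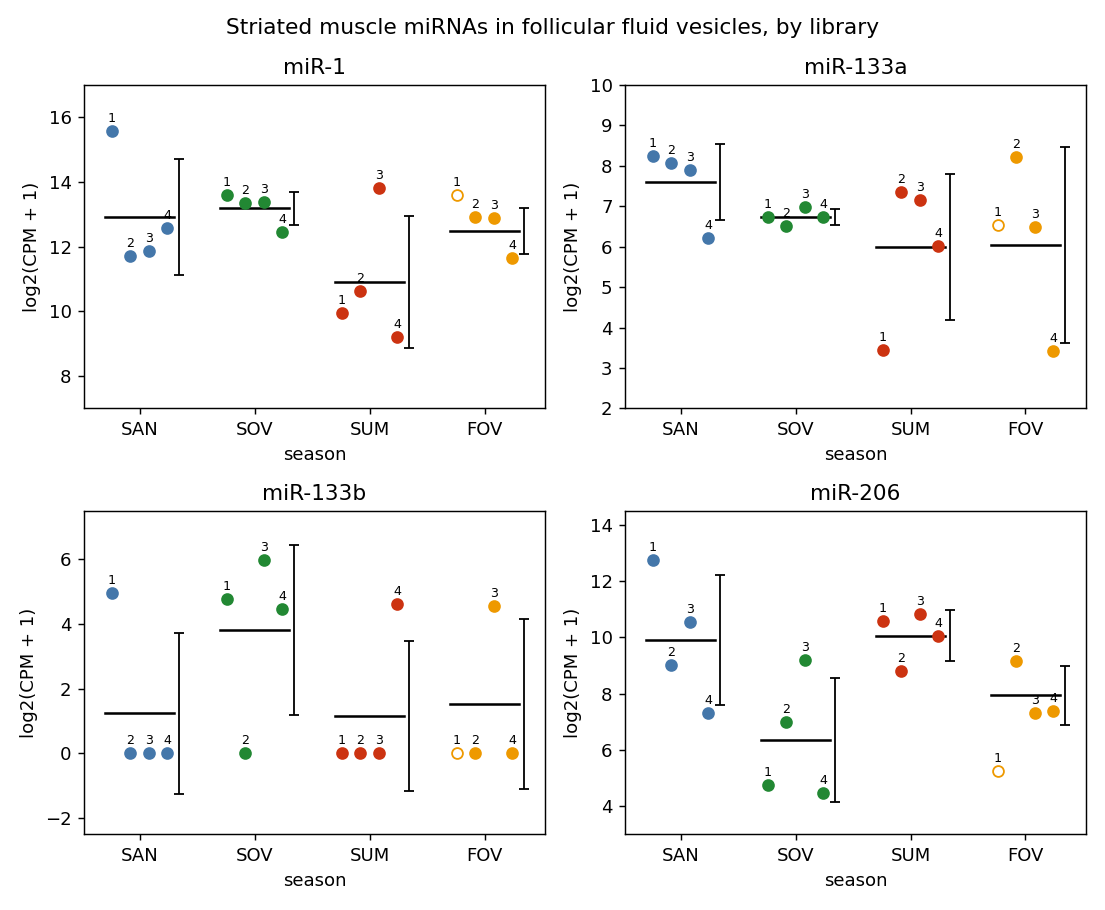
Level of each muscle miRNA in every library, as log2(CPM + 1), with the library number beside each point, lines for season means and bars for the SD on that scale (n = 4, and n = 3 in FOV, where the open point FOV_1 is left out). Axes start at different values. SAN_1 and SUM_3 lie far above the other libraries of their seasons for miR-1, and miR-206 is lowest in SOV_1 and SOV_4.

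MiR-1 varied more between libraries than between seasons. In SAN it stood at 48382, 3364, 3708 and 6130 CPM in SAN_1 to SAN_4, so SAN_1 was far above the others. SOV libraries had 12278, 10546, 10614 and 5587 CPM, the most even of the 4-library seasons. In SUM the values were 991, 1597, 14461 and 593 CPM. Here SUM_3 alone reached the range of the other seasons, and the other 3 lay below every library of SAN, SOV and FOV. FOV_2 to FOV_4 had 7700, 7633 and 3223 CPM. In SAN_1, miR-1 was 4.40% of all miRNA reads (95% Clopper-Pearson interval 4.19 to 4.61%) and the 5th most abundant miRNA, whereas in SUM_4 it was 0.0681% (0.0536 to 0.0854%) and ranked 75th.

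By season mean, miR-1 was 15396 ± 22025 CPM in SAN (SD, n = 4), 9756 ± 2893 in SOV (n = 4), 6186 ± 2566 in FOV (n = 3) and 4411 ± 6713 in SUM (n = 4). The order by medians was another one, with 10580 CPM in SOV, 7633 in FOV, 4919 in SAN and 1294 in SUM. Libraries of neighbouring seasons overlapped in either order, and no neighbours passed the test given below. The standard deviation of miR-1 within seasons was 1.47 on the log2 scale, the 6th highest of 60 miRNAs with a mean above 1000 CPM, whose median was 0.56.

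No season comparison of miR-1 passed the test, in which limma was fitted on log2(CPM + 1) over 282 miRNAs and a miRNA was called at a Benjamini-Hochberg adjusted p below 0.05 together with a change of 2-fold or more. All log2 FC below are the first season minus the second. For SOV vs. SUM, miR-1 had a log2 FC of 2.28 (SE 0.85, limma adjusted p = 0.0686), higher in SOV, and the seasons overlapped through SUM_3. Without SUM_3 the log2 FC was 3.26 (adjusted p = 0.00587), and without SAN_1, which enters only the shared estimate of spread, the adjusted p was 0.0327. The direction and size thus rested on 3 of the 4 SUM libraries, and edgeR on the recovered reads gave a log2 FC of 1.16 (adjusted p = 0.359).

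For SAN vs. SUM the log2 FC of miR-1 was 2.02 (SE 0.85, limma adjusted p = 0.126), and 2.99 without SUM_3 (adjusted p = 0.0251). Spring (SAN and SOV) vs. SUM and FOV gave 1.36 (SE 0.63, adjusted p = 0.135), and 1.85 without SUM_3 (adjusted p = 0.0167). In SAN vs. SOV, miR-1 differed by -0.26 (SE 0.85, adjusted p = 0.993), a sign that turned to 0.14 without SAN_2 and to 0.09 without SAN_3. In SAN vs. FOV it was 0.44 (SE 0.92, adjusted p = 0.825), and -0.44 without SAN_1. SAN vs. the ovulatory seasons together gave 0.73 (SE 0.70, adjusted p = 0.626), and -0.14 without SAN_1. The positive signs of these last 2 comparisons therefore rested on SAN_1. The moderated F test over all seasons gave an adjusted p of 0.195, and 0.0186 without SUM_3.

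The level of miR-1 fell with the number of miRNA reads in the library, by which CPM is itself scaled. Over 16 libraries, log2(CPM + 1) of miR-1 and log2 of the reads assigned to miRNAs had r = -0.73 and rho = -0.76 (permutation p = 0.0015 and 0.00098, adjusted over 4 relations 0.003 and 0.00392). With values centred on season means r was -0.74, without the 2 libraries farthest in depth (FOV_4 and SUM_4) it was -0.66, and with each library left out it lay between -0.78 and -0.66. For miR-133a, r was -0.74 and rho was -0.69 (permutation p = 0.00069 and 0.00353, adjusted 0.00276 and 0.00706), with -0.77 after centring and -0.66 without those 2 libraries. Over all 282 miRNAs the median r was 0.17, and miR-133a and miR-1 had the lowest and second lowest values of all. MiR-133b (r = -0.25, adjusted p = 0.473 by permutation) and miR-206 (r = -0.08, adjusted p = 0.771 by permutation) did not pass.

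In reads, the 4 shallowest libraries, SUM_3, SAN_1, FOV_2 and SOV_1 (27131 to 41224 reads), held 406, 1598, 340 and 469 reads of miR-1. The 4 deepest, FOV_4, SUM_4, SUM_1 and SAN_4 (94216 to 112146 reads), held 334, 75, 100 and 500. Reads of miR-1 thus did not scale with depth between these libraries, and in SAN, SOV and SUM the highest CPM of miR-1 was in the shallowest library. With log2 of the reads as a covariate, an alternative chosen after seeing the data, the log2 FC of miR-1 in SOV vs. SUM was 1.46 in place of 2.28 (limma adjusted p = 0.121). The part of depth in the season values of miR-1 was not otherwise tested.

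**Figure D2:**
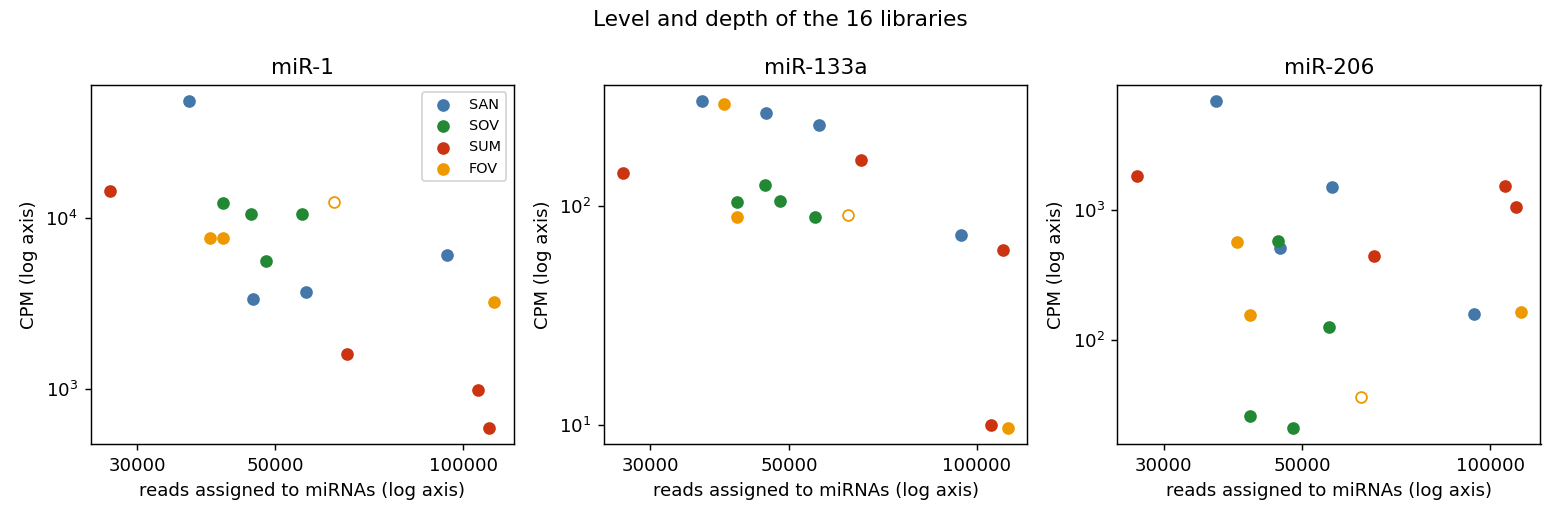
CPM of miR-1, miR-133a and miR-206 against the reads assigned to miRNAs in each of the 16 libraries, both on log axes, coloured by season, with FOV_1 as an open point. MiR-1 (r = -0.73) and miR-133a (r = -0.74) slope downwards with depth, with the lowest points in SUM_4 and FOV_4, whereas the points of miR-206 (r = -0.08) show no clear slope.

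MiR-133a was low in every library and rested on 1 to 14 reads each. In SAN it was 303, 266, 236 and 73.6 CPM, and in SOV 105, 89.5, 125 and 106 CPM. In SUM it was 9.91, 163, 142 and 63.3 CPM, and in FOV_2 to FOV_4 294, 89.3 and 9.65 CPM. The lowest values, in SUM_1 and FOV_4, were single reads. Season means were 220 ± 101 CPM in SAN, 131 ± 147 in FOV (n = 3), 106 ± 14.4 in SOV and 94.6 ± 70.9 in SUM (SD, n = 4 elsewhere), and libraries of neighbours in this order overlapped. The largest log2 FC of miR-133a was 1.61 for SAN vs. SUM (SE 1.03, limma adjusted p = 0.320), and the F test over seasons gave an adjusted p of 0.533.

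For miR-133b, 10 reads in 6 libraries allowed no firm comparison. It had 1 read in SAN_1, SOV_1, SOV_4 and FOV_3, 3 reads in SOV_3 and SUM_4, and none elsewhere. SOV had the highest mean, 27.4 ± 25.9 CPM, against 7.57 ± 15.1 in SAN, 7.44 ± 12.9 in FOV (n = 3) and 5.93 ± 11.9 in SUM. A difference was not detectable at this depth, and the log2 FC of 2.65 for SOV vs. SUM had an SE of 1.68 (limma adjusted p = 0.286).

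MiR-206 was the one muscle miRNA called in a season comparison. In SAN it was 6812, 513, 1490 and 159 CPM, highest in SAN_1 as for miR-1. SOV had 26.2, 125, 582 and 21.2 CPM, and SOV_1 and SOV_4 held 1 read each. SUM had 1517, 444, 1817 and 1052 CPM, so that 3 of its 4 libraries lay above every SOV library. In FOV_2 to FOV_4 it was 566, 156 and 164 CPM. Season means were 2244 ± 3097 CPM in SAN, 1207 ± 598 in SUM, 295 ± 234 in FOV (n = 3) and 189 ± 266 in SOV (SD, n = 4 elsewhere).

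In SOV vs. SUM, miR-206 was lower in SOV with a log2 FC of -3.71 (SE 1.06, limma adjusted p = 0.0199). It was 1 of the 4 muscle miRNAs called, where 17.7% of all 282 were called in this comparison and 12.1% were called lower in SOV, so the share of muscle miRNAs was close to that of all miRNAs. The seasons overlapped, as SOV_3 (582 CPM) exceeded SUM_2 (444 CPM). The call was lost without SOV_1 (log2 FC -3.18, adjusted p = 0.0777), without SOV_4 (-3.08, 0.0724) and without SUM_3 (-3.45, 0.0522). It was also lost when only the 2 seasons entered the fit (adjusted p = 0.0736) and in edgeR on the recovered reads (-2.64, adjusted p = 0.0626), while DESeq2 kept it (-2.67, adjusted p = 0.0300). With depth as a covariate the log2 FC was -4.17 (limma adjusted p = 0.0161).

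In SAN vs. SOV, miR-206 had a log2 FC of 3.55 (SE 1.06), with an adjusted p of 0.196 in limma. The study, by its own method, reported miR-206 as differentially expressed here and higher in SAN, so the call differs while the direction is the same. No miRNA of the 282 was called in this comparison by limma or edgeR (0%), 31 (11.0%) had an unadjusted p under 0.05, and DESeq2 called 8, miR-206 included (adjusted p = 0.0130). The seasons overlapped because SOV_3 (582 CPM) exceeded SAN_2 (513 CPM) and SAN_4 (159 CPM). In SUM vs. FOV the log2 FC was 2.12 (SE 1.14, adjusted p = 0.356), in SAN vs. FOV 1.96 (SE 1.14, adjusted p = 0.392), in SOV vs. FOV -1.59 (SE 1.14, adjusted p = 0.407) and in SAN vs. SUM -0.16 (SE 1.06, adjusted p = 0.970). By mean level the order was SAN, SUM, FOV and SOV. Libraries of each pair of neighbours overlapped, SUM and FOV only through SUM_2 (444 CPM) and FOV_2 (566 CPM), and no neighbours passed the test.

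The F test of miR-206 over all seasons missed the threshold narrowly (limma adjusted p = 0.0516, 13.8% of all miRNAs called). It was below the threshold without SAN_1 (0.0485), SAN_4 (0.0227) or SOV_3 (0.0122). No muscle miRNA was called in SAN vs. SUM (9.57% of all called), SAN vs. FOV (0.709%), SOV vs. FOV (2.84%), SUM vs. FOV (3.55%), SAN vs. the ovulatory seasons (0.355%) or spring vs. SUM and FOV (12.8%). In simulated data for SOV vs. SUM, changes were planted only in miRNAs with a mean above 100 CPM, which leaves out miR-133b. The test found 11% of those of 2-fold, 51.2% of 4-fold and 81.8% of 8-fold, so small changes would mostly be missed. MiR-206 and miR-1 had the 4th and 6th highest within-season SD of 60 abundant miRNAs (log2 scale, 1.78 and 1.47, median 0.56). These average shares can therefore overstate what would be found for them.

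**Figure D3:**
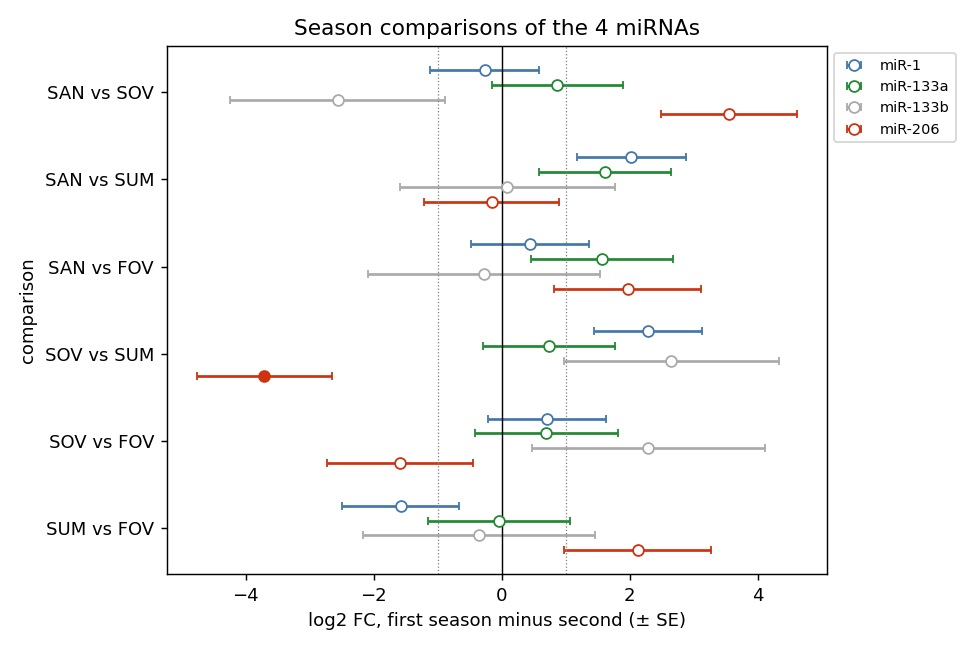
log2 FC of the 4 muscle miRNAs in the 6 comparisons of seasons, first season minus second, with bars for the SE of the limma fit and dotted lines at a 2-fold change. The filled point, miR-206 in SOV vs. SUM (-3.71), is the only call, and miR-1 (2.28) lies on the other side of zero in the same comparison.

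MiR-1 and miR-206, which share their seed, had opposite signs in SOV vs. SUM, and their ratio within a library does not depend on scaling. The reads of miR-1 exceeded those of miR-206 in 14 of 16 libraries, by up to 469 to 1 in SOV_1. SUM_1 and SUM_4 were the exceptions, with 100 reads of miR-1 to 153 of miR-206 and 75 to 133. Of the reads of the 4 muscle miRNAs, miR-206 made up 33.9% in SUM, 12.1% in SAN, 2.88% in FOV and 1.95% in SOV.

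The mean log2 ratio of miR-1 to miR-206 was 6.55 ± 1.79 in SOV, 4.50 ± 0.91 in FOV (n = 3), 3.01 ± 1.62 in SAN and 0.84 ± 1.86 in SUM (SD, n = 4 elsewhere, 0.5 reads added). SOV and SUM did not overlap and differed by 5.71 (exact two-sided permutation p = 0.0286, the smallest that 4 against 4 allow, adjusted over 24 tests of ratios 0.229). SUM vs. FOV differed by -3.66, also without overlap, and SAN vs. SOV by -3.54 (exact permutation p = 0.0571 each, adjusted 0.229). None of the 24 ratio tests passed after adjustment. The ratio of miR-1 to miR-133a, the pair from shared precursors, was 6.33 ± 0.54 in SOV, 6.24 ± 1.57 in FOV, 5.26 ± 1.78 in SAN and 4.74 ± 1.79 in SUM, with every exact permutation p at 0.2 or above.

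**Figure D4:**
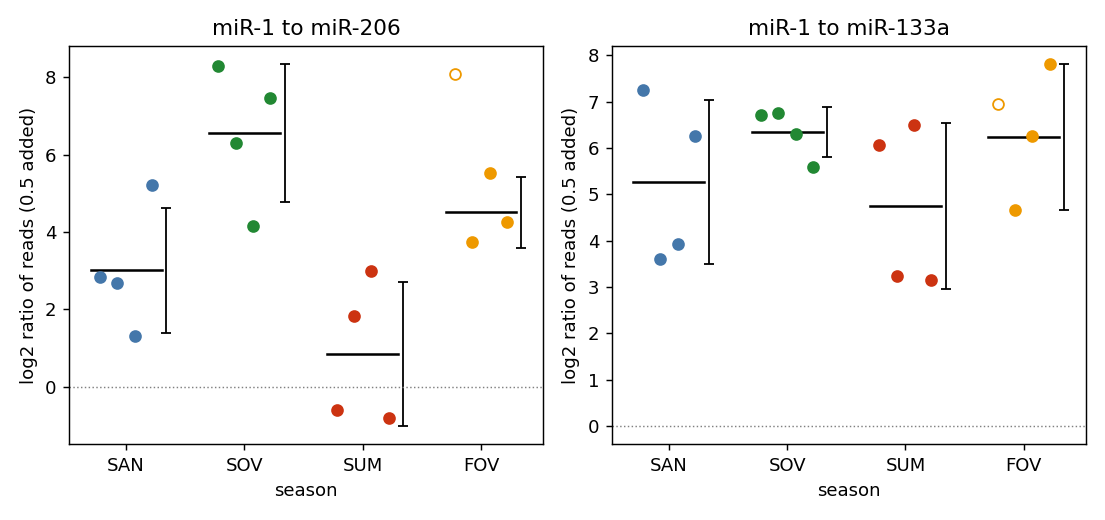
log2 ratio of the reads of miR-1 to those of miR-206 (left) and to miR-133a (right) in each library, with 0.5 added to each read count, lines for season means and bars for the SD (n = 4, and n = 3 in FOV, where the open point FOV_1 is left out). All SOV libraries lie above all SUM libraries for miR-1 to miR-206, and SUM_1 and SUM_4 lie below the dotted line of equal reads.

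A common variation of the 4 miRNAs was not detected. Over 16 libraries, miR-1 and miR-133a had the highest correlation of the 6 pairs (r = 0.47, rho = 0.41, permutation p = 0.0682 and 0.121, adjusted 0.409 and 0.558), and r was 0.40 without SUM_4 and SAN_1, the 2 libraries farthest in miR-1. MiR-1 and miR-206 had r = -0.07 and rho = -0.05 (permutation p = 0.788 and 0.864), and 0.34 when values were centred on season means. None of the 6 pairs passed, and all share the depth and scaling of their library.

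The miRNAs whose pattern over 15 libraries was most like that of miR-1, among 138 with a mean above 100 CPM, were miR-26a (r = 0.75), miR-143 (0.73), let-7f (0.61), miR-126-3p (0.61) and miR-145 (0.61). MiR-143 and miR-145 are enriched in smooth muscle and miR-126-3p in endothelium. For miR-206 they were miR-543 (r = 0.62), miR-183 (0.60), miR-370 (0.60), miR-485-3p (0.56) and miR-10b (0.55). For miR-133a they were miR-224 (r = 0.71), let-7e (0.60), miR-28-5p (0.58), miR-26a (0.56) and miR-98 (0.55). Thus only miR-26a was among the 5 most alike of more than 1 muscle miRNA, and these values are descriptions over libraries that share depth and season.

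The smooth muscle miRNAs, 2 of which were among the 5 most like miR-1, were lower in SUM, where miR-1 itself passed no comparison. MiR-143 was 17314 ± 9230 CPM in SUM against 217751 ± 51811 in SOV, 157345 ± 21462 in SAN and 131147 ± 44785 in FOV (n = 3), and it was called in each comparison with SUM (limma adjusted p = 1.05e-05 for SAN, 1.54e-06 for SOV and 9.10e-05 for FOV). MiR-145 was called in the same 3 comparisons, with a log2 FC of 3.23 for SOV vs. SUM (SE 0.34, adjusted p = 3.36e-06). The log2 ratio of miR-1 to miR-143 was higher in SUM than in SOV by 1.48 without overlap (exact permutation p = 0.0286, adjusted 0.229), which did not pass after adjustment.

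Other marker sums were compared between the same seasons. The 8 granulosa and follicle miRNAs listed, 1 of them with no read, summed to 71.2 to 245 CPM in SUM, 269 to 786 CPM in SOV, 575 to 1839 CPM in SAN and 193 to 679 CPM in FOV (n = 3). The smooth muscle sum was 10756 to 30596 CPM in SUM and 169664 to 294666 CPM in SOV. The summed endothelial miRNAs, 2 of 2 with reads, were 2222 to 6965 CPM in SUM and 8858 to 11807 CPM in SOV. The liver miRNA miR-122 was 7181 to 9450 CPM in SUM and 602 to 4100 CPM in SOV. Leukocyte miRNAs, 6 of 6 with reads, were 2697 to 6376 CPM in SUM and 1218 to 4567 CPM in SOV, and erythrocyte miRNAs, 4 of 4 with reads, were 8589 to 73542 and 6979 to 13447 CPM. Epithelial miRNAs, 5 of 5 with reads, were 1348 to 6732 CPM in SUM and 935 to 2356 CPM in SOV, and neural miRNAs, 2 of 2 with reads, were 177 to 19879 and 627 to 23261 CPM. Between SOV and SUM, the granulosa and follicle, smooth muscle, endothelial and liver sums did not overlap, and the leukocyte, erythrocyte, epithelial and neural sums did. The share of all miRNAs without overlap was not given here, and 17.7% of all 282 were called in this comparison, so these are descriptions. The smooth muscle sum was mostly miR-143 (mean 217751 CPM in SOV, against 3653 CPM for miR-145). SAN_1, where miR-1 and miR-206 were highest, had the highest sum of the 2 neural miRNAs of all 16 libraries (27279 CPM) and ranked 13th for leukocyte miRNAs. The part of these cell types in the values of miR-1 and miR-206 was not tested.

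Of 22 further miRNAs known from myogenesis, all of which were tested, 2 were called higher and 5 lower in SOV than in SUM (31.8% of the list, 17.7% of all miRNAs). In SAN vs. SUM, 2 were called higher and 3 lower (22.7%, against 9.57% of all), in SOV vs. FOV 2 were called lower (9.09%, against 2.84%), and in the other 3 comparisons none was called. The median log2 FC of the list for SOV vs. SUM was 0.01, against -0.51 over all miRNAs. MiR-128 was 3158 ± 1293 CPM in SOV and 19253 ± 3265 in SUM (log2 FC -2.71, limma adjusted p = 0.000301). MiR-22, abundant in heart and skeletal muscle, was 1577 ± 466 CPM in SOV and 16428 ± 5220 in SUM (log2 FC -3.36, adjusted p = 0.000301). MiR-26a, which represses the histone methyltransferase Ezh2 in mouse myoblasts, was 40486 ± 3362 CPM in SOV and 17708 ± 4904 in SUM (log2 FC 1.23, adjusted p = 0.00832). The list therefore moved in both directions, with miR-206 on the side of miR-22 and miR-128, and its members are expressed in many tissues besides muscle.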

How the data were processed

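Small RNA of FF-EVs was sequenced as 50-base single-end reads (TruSeq, NovaSeq). Per the methods of the study, the authors trimmed reads in CLC Genomics Workbench 21 (Q-score above 30), mapped them to EquCab3.0 and annotated them against miRBase 22. The submitters' processing notes list bcl2fastq, Bowtie2 2.2.2 and DESeq2, and which description applies was not settled here. The deposited values are a signal, TMM-adjusted CPM, of which 100% were whole reads within 1e-06 reads.

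The members and lists were chosen with earlier results of these data known, and the study itself reports miR-206 as higher in SAN than in SOV. Values were tested in limma 3.58.1 (R 4.3.3) (trend method, two-sided) after adding 1 CPM and taking log2, in 1 model of 15 libraries. A single read was worth 7.91 to 35.6 CPM, so the FC of low miRNAs depends on the method and on the amount added. For miR-133b in SOV vs. SUM the log2 FC was 2.65, and 0.79 to 3.63 over the alternatives that left out no further library. Named beside the members were striated and smooth muscle miRNAs, the 5 nearest patterns of each member above 100 CPM, and the 3 called miRNAs of the myogenesis list with the smallest adjusted p. Ratios had exact permutation tests, and correlations 1e+05 permutations. Recovery was checked in 20 simulated data sets with 60 changed miRNAs each, all with a mean above 100 CPM. On the recovered reads, edgeR 4.0.16 called 55 and DESeq2 1.42.0 called 61 miRNAs in SOV vs. SUM, against 50 by limma. Target prediction was not analysed here. Alternatives were other pseudocounts, filters and scalings, FOV_1 kept, a replicate block, robust moderation, fits of only the seasons compared, miR-133a and miR-133b summed, depth as a covariate (chosen after seeing the data) and each library left out. An adjusted p that DESeq2 did not give was left missing.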

Additional observations from a re-analysis of the deposited data

Results flagged for a closer look

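Within seasons of 4 libraries, 1 library lay far from the others by Dixon's criterion on CPM in several of the 16 groups examined. The criterion's rate of about 1 in 20 groups holds for normal values only. Raw CPM and counts with zeros need not follow it, so these cases are descriptions. MiR-1 was 48382 CPM in SAN_1, against 3364 to 6130 CPM in the other SAN libraries. MiR-1 was 14461 CPM in SUM_3, against 593 to 1597 CPM in the other SUM libraries. MiR-133b stood apart in SAN_1 (30.3 CPM, 1 read), SUM_4 (23.7 CPM, 3 reads) and FOV_3 (22.3 CPM, 1 read) because the other libraries of these seasons had no read. FOV_1, left out of the comparisons, had 12369 CPM of miR-1, above the 3223 to 7700 CPM of the other FOV libraries, and 91.3 CPM of miR-133a, within their 9.65 to 294 CPM.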

How the results depend on the processing

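The call of miR-206 in SOV vs. SUM was lost when only these seasons were fitted (log2 FC -3.71) and in edgeR (-2.64). The adjusted p of miR-206 over all seasons, 0.0516, was 0.0391 with FOV_1 kept, 0.0431 and 0.0463 with pseudocounts of 5 and 20 CPM, 0.0485 with no filter, 0.0480 with a filter of 100 CPM, 0.0352 in edgeR, 0.00906 in DESeq2 and 0.0462 with depth as a covariate. DESeq2 also called miR-206 in SAN vs. SOV (3.56), SAN vs. FOV (2.93) and SAN vs. the ovulatory seasons (2.46). Median-of-ratios scaling moved the median log2 FC of all miRNAs in SOV vs. SUM from -0.51 to -0.23, and the log2 FC there was 2.54 for miR-1 and -3.45 for miR-206, which stayed called. The cause of these differences was not tested.

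All other changes of sign were in values that had not passed. In edgeR and DESeq2 these were miR-1 in SAN vs. SOV (0.656 and 0.657), miR-133a in SOV vs. FOV (-0.22 and -0.24), miR-133b in SAN vs. SUM (-0.56 and -0.48) and SUM vs. FOV (0.40 and 0.30), and miR-206 in SAN vs. SUM (0.887 and 0.892) and spring vs. SUM and FOV (0.14 and 0.13). With depth as a covariate they were miR-1 in SAN vs. SOV (0.065), miR-133a in SOV vs. SUM (-0.11) and SUM vs. FOV (0.37), and miR-133b in SAN vs. SUM (-0.080). MiR-133a in SUM vs. FOV was 0.036 with median-of-ratios scaling and 0.17 with TMM over 15 libraries. With FOV_1 kept, miR-133b was 0.11 in SAN vs. FOV and 0.021 in SUM vs. FOV, and the ratio of miR-1 to miR-133a differed by -0.081 in SOV vs. FOV. Centred on season means, r was 0.34 for miR-1 and miR-206 and 0.28 for miR-133b and miR-206, and without the 2 farthest libraries it was -0.23 for miR-133a and miR-133b.

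With each library left out, the log2 FC of miR-1 was -1.14 to 0.14 in SAN vs. SOV, 1.14 to 2.99 in SAN vs. SUM, -0.44 to 0.85 in SAN vs. FOV, 1.72 to 3.26 in SOV vs. SUM, -0.14 to 1.14 in SAN vs. the ovulatory seasons, and 0.92 to 1.85 in spring vs. SUM and FOV, and its adjusted p over seasons was 0.0186 to 0.416. For miR-133a it was -0.11 to 1.20 in SOV vs. SUM, -0.62 to 1.78 in SOV vs. FOV, and -1.36 to 1.04 in SUM vs. FOV. For miR-133b it was -1.16 to 1.24 in SAN vs. SUM, -1.51 to 1.24 in SAN vs. FOV, and -1.51 to 1.16 in SUM vs. FOV. For miR-206 it was -1.10 to 0.70 in SAN vs. SUM and -4.65 to -3.08 in SOV vs. SUM, and its adjusted p over seasons was 0.0122 to 0.132. Differences of log2 ratios were -0.14 to 1.11 (miR-1 to miR-133a, SAN vs. SUM), -0.69 to 0.88 (the same, SOV vs. FOV), -1.43 to 0.20 (miR-133a to miR-206, SAN vs. FOV), and for miR-1 to miR-143 -0.62 to 0.63 (SAN vs. SOV), -0.69 to 0.57 (SAN vs. FOV), and -0.16 to 0.064 (SOV vs. FOV).

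The number of all miRNAs called, given as limma, then the alternatives beyond 1.5 times, was 0 in SAN vs. SOV (DESeq2 8), 27 for SAN vs. SUM (no filter 16, only these seasons 17, DESeq2 58), 2 in SAN vs. FOV (FOV_1 kept 1, TMM over 15 libraries 1, filter of 100 CPM 4, robust moderation 4, pseudocount of 20 CPM 5, edgeR 0, depth covariate 3, DESeq2 12), 8 in SOV vs. FOV (median-of-ratios 3, only these seasons 4, pseudocounts of 5 and 20 CPM 13, edgeR 14, DESeq2 20), 10 in SUM vs. FOV (only these seasons 5), 1 in SAN vs. the ovulatory seasons (equal totals and TMM over 15 libraries 0, depth covariate 2, edgeR 7, DESeq2 12) and 39 over all seasons (edgeR 66, DESeq2 79). Leaving out 1 library gave 0 to 5, 10 to 27, 0 to 6, 6 to 15, 4 to 19, 0 to 5 and 20 to 50 in that order, and 32 to 57 in SOV vs. SUM.

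Replicate numbers showed no sign of pairing the libraries, which cannot exclude that pools with the same number shared mares. Over 21 pairs with the same number, correlations of deviations from season means lay between -0.27 and 0.27, and 4 of 15 libraries correlated best with their own number. With the number as a block, the log2 FC of miR-206 in SOV vs. SUM was -3.71 (limma adjusted p = 0.0237), miR-133a in SUM vs. FOV was 0.17, 24 miRNAs were called over all seasons, and no call of a muscle miRNA changed. Fits of only the seasons compared gave no value for the comparisons of several seasons. Counts of 1 to 14 reads limit miR-133a, and 10 reads in all limit miR-133b.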

Other observations

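FOV_1 held 677 reads of miR-1 and 2 of miR-206, and its log2 ratio of 8.08 lay above the other FOV libraries (3.74 to 5.51) and within the range of SOV (4.17 to 8.29). Its 36.5 CPM of miR-206 lay below the 156 to 566 CPM of the other FOV libraries. MiR-133b took 9.09 to 33.3% of the reads of the miR-133 pair in the 6 libraries that had any.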
